A study of Mus musculus with 9 samples.

Results

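The 9 genes described here, of 27998 in the count table, encode proteins by which leukocytes and the vessel wall hold on to each other: the immunoglobulin-family adhesion molecules Icam1, Icam2, Vcam1 and Pecam1, the selectins Sele and Selp, the selectin ligand Selplg, the sialomucin Cd34 and the chemokine-binding receptor Ackr1. The list sets no threshold on values, and its genes were followed through endothelial cells and the leukocytes of the mouse liver. Cells of C57BL/6 livers were profiled by droplet-based 3' single-cell RNA-seq after the tissue had been minced, digested with dispase and collagenase, filtered and spun down, in a preparation that the study's methods describe as being for cells other than hepatocytes. The sources used here do not say whether the libraries of a group came from separate mice, so that p-values measure the spread between libraries. All mice carried ROSA26-rtTA-IRES-EGFP. The WT mice (2 libraries) had no further transgene in their labels and ate doxycycline food for 7 days, and the tetYAP mice ate it for 3 days (YAP3d, 4 libraries) or 7 days (YAP7d, 3 libraries), which switches on an active form of the co-activator YAP. The methods of the study name a cross with Alb-CRE mice and a floxed allele of the transactivator, and Alb-Cre is known to act in the hepatocyte lineage. The age of the mice was not given in the sources used here. WT and YAP7d shared the length of doxycycline feeding, while WT and YAP3d differed in it.

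Leukocytes leave the blood in steps. Selectins on the endothelium catch mucin-like ligands such as PSGL-1, the product of Selplg, so that cells roll along the wall, and leukocyte integrins then bind ICAM and VCAM proteins so that they stop and cross. In the liver most recruitment takes place in the sinusoids, whose endothelium carries ICAM proteins and PECAM1 and is known for its low selectin content, and resident macrophages of the sinusoid, the Kupffer cells, carry VCAM1.

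Each library held 293 to 2554 cells and 1314878 to 25056881 unique transcript counts (UMIs), and the median per cell was 3190.5–4358 in WT, 3380–5069.5 in YAP3d and 5717–11471.5 in YAP7d. Of 8515 distinct cell barcodes, 46 were found in more than 1 library. Of the 8562 cells, 8527 had at least 200 genes, and all but 22 of those fell into classes that are called here by the type they resemble, from markers among which none of the 9 genes stood. The classes held 1948 endothelial-like, 1241 macrophage-like, 846 monocyte-like, 475 dendritic-like, 151 plasmacytoid-dendritic-like, 155 neutrophil-like, 1746 T-cell-like, 569 NK-cell-like and 1165 B-cell-like cells. The endothelial-like class was small in YAP7d: with 778, 1059 and 111 cells in WT, YAP3d and YAP7d, its share averaged 44.2% ± 12.4, 26.7% ± 11.2 and 4.16% ± 0.762 (SD over 2, 4 and 3 libraries). Transcripts of the predicted gene Gm10709 set 5 libraries apart, with 347 to 611 counts per 1000000 (CPM) over all cells in YAP3d replicates 1 and 2 and in the 3 YAP7d libraries against 3.65 to 11.2 CPM in the other 4. What separates these libraries is not given in the labels. For Cd34, Ackr1 and the number of genes called in endothelial-like cells, and for members over all cells, values with a term for that difference are also given. Other results, the wider lists among them, carry no separate value with it. Both WT libraries are among the 4 and all YAP7d libraries among the 5, so that the term is estimated within YAP3d alone.

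Across classes, most of the 9 genes had 1 place where they stood highest. The levels are in CPM of the class, averaged over the libraries with at least 10 cells of it, and are a description without a test, because the classes were made from the same cells. Ackr1, which binds chemokines without signalling and marks venules, had 52.0 ± 36.1 CPM (SD over 9 libraries) in endothelial-like cells, and 585 of its 626 counts (93.5%) lay there. Icam2, a ligand of the integrin LFA-1, had 438 ± 95.3 CPM in endothelial-like cells, 91.6 ± 41.2 in B-cell-like cells and 51.6 ± 15.2 in T-cell-like cells. Pecam1, the junctional protein CD31, followed the same order with 461 ± 34.7 CPM in endothelial-like and 128 ± 26.0 in B-cell-like cells. For both genes the endothelial-like level was far above the spread of the next class.

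Vcam1, the ligand of the integrin VLA-4, was shared between both sides of the sinusoid. It had 218 ± 113 CPM in macrophage-like and 180 ± 60.6 in endothelial-like cells, 2 levels within each other's spread, and at most 19.6 CPM, in neutrophil-like cells, among the other leukocyte classes. Within the macrophage-like class the sub-clusters with Kupffer markers raised (553 cells) had 310 ± 147 CPM and those without (688 cells) had 78.8 ± 64.0. Of the latter cells 348 formed a sub-cluster with monocyte genes (Chil3, Ace and Ly6c2) among its 10 leading genes. Icam1, another LFA-1 ligand and a known target of inflammatory signals, was found in most classes, with 116 ± 39.0 CPM in cholangiocyte-like, 88.1 ± 51.9 in macrophage-like, 86.2 ± 43.0 in NK-cell-like, 77.1 ± 29.7 in dendritic-like, 51.9 ± 17.2 in T-cell-like and 48.8 ± 21.1 in endothelial-like cells. Of these 6 classes no neighbours in the order differed beyond their spread, and B-cell-like cells were below them with 15.4 ± 14.0 CPM.

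**Figure D1:**
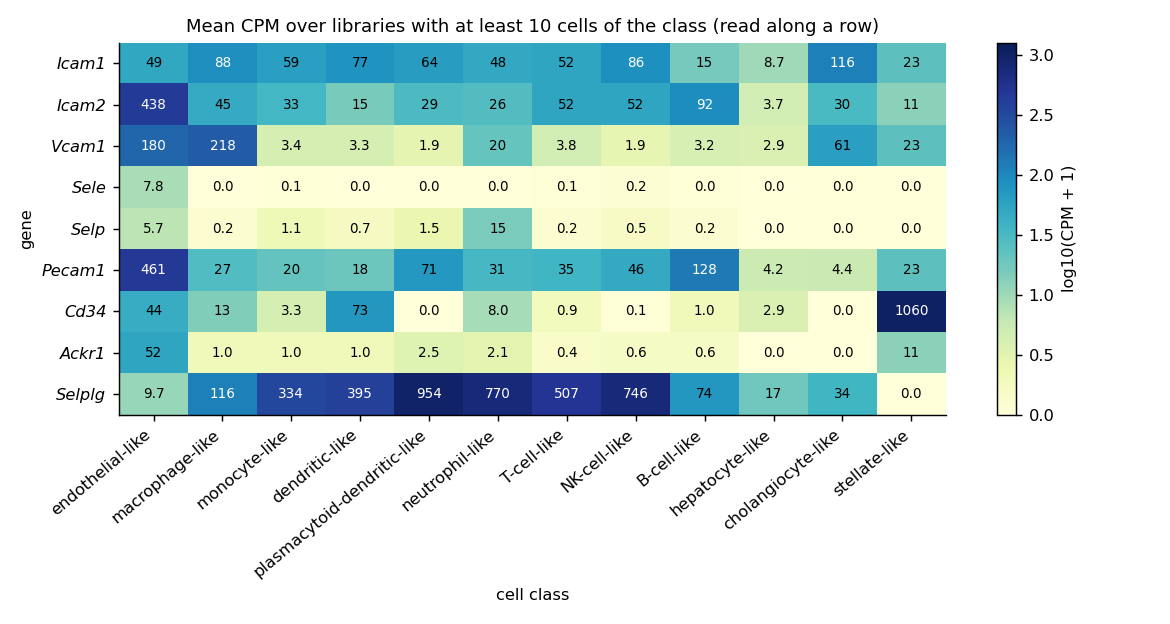
Mean level of each of the 9 genes (rows) in 12 classes of liver cells (columns); colour gives log10(CPM + 1) and the numbers give CPM, averaged over libraries with at least 10 cells of the class. Icam2, Pecam1 and Ackr1 stood highest in the endothelial-like class (438, 461 and 52.0 CPM), Selplg in leukocyte classes, Cd34 in stellate-like cells and Vcam1 in macrophage-like and endothelial-like cells.

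Selplg, the gene of the selectin ligand on leukocytes, had the reverse pattern of the endothelial genes. It was highest in plasmacytoid-dendritic-like (954 ± 123 CPM), neutrophil-like (770 ± 364) and NK-cell-like cells (746 ± 120), which overlapped. T-cell-like (507 ± 74.6), dendritic-like (395 ± 51.4) and monocyte-like cells (334 ± 90.7) followed, then macrophage-like cells (116 ± 23.8), B-cell-like cells (73.9 ± 24.5) and endothelial-like cells (9.75 ± 9.11). Cd34, a sialomucin of endothelium, progenitors and fibroblasts, had 1060 CPM in stellate-like cells, a class that only 1 library held with at least 10 cells. All 11 stellate markers were raised in its cluster, but its 10 leading genes, among them Dcn, Clec3b, Col3a1, Mgp and Lum, are known from fibroblasts in general, and Lrat, Reln, Des and Rgs5 were not among them. In the other classes it reached 72.6 CPM in dendritic-like and 44.3 ± 41.1 in endothelial-like cells, and 13.1 in macrophage-like cells. Of its 1349 counts, pooled over the groups, 39.1% were dendritic-like, 23.9% macrophage-like, 19.1% endothelial-like and 13.4% stellate-like. These shares depend also on the number of cells of each class and on their UMIs.

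In the named classes both selectins were close to the limit of detection. Sele, which activated endothelium makes, had 41 counts in all, of which 36 (87.8%) were in endothelial-like cells. Selp, made by endothelium and platelets, had 259 counts, of which 84 (32.4%) were endothelial-like, and 126 (48.6%) came from 22 cells of 1 cluster that stayed unnamed. Selp was itself among the 10 leading genes of that cluster, with Prg4, Alox15, Saa3, Serpinb2, Slpi, Ptgis, C4b, Fn1 and Thbs1.

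Genes with a like order of levels over the 12 classes were looked for among 6671 genes that reached 50 CPM in at least 1 class, as a description without a test, since all classes come from the same libraries. The nearest by Pearson's r of log2(mean CPM + 1) were Itga9 for Vcam1 (0.974), Pxdn for Ackr1 (0.962), Fam178a for Icam2 (0.952), Trpv2 for Selplg (0.943), Dkk3 for Cd34 (0.908), Zcchc6 for Pecam1 (0.901) and Tmem33 for Icam1 (0.862). Sele and Selp reached 50 CPM in no class.

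The first comparison asked which of the 9 genes differed between the groups within endothelial-like cells. Cd34 was higher and Ackr1 was lower in YAP7d than in WT, and both also differed in the same directions between YAP7d and YAP3d, whereas none of the genes passed the test between YAP3d and WT. Fits were made over all genes of the class on counts summed per library, with the quasi-likelihood test of edgeR and a Benjamini-Hochberg adjusted p below 0.05. Of the 9 genes, 8 passed the filter on low counts (Selp did not) and 2 were called between YAP7d and WT, where 18.4% of all 7467 genes tested were called (9.71% higher, 8.72% lower). The same 2 were called between YAP7d and YAP3d, where the share over all genes was 17.1% (8.96% higher, 8.16% lower). The first share rests on 1376 genes, which became 660 or 802 when the first or second WT library was left out, 867 without YAP7d replicate 3, 483 in cells thinned to 2000 UMIs each and 233 with a model term for the libraries with Gm10709 transcripts. The second rests on 1278, which became 699 without YAP7d replicate 3, 399 in thinned cells and 460 with that term. What follows concerns the single genes, and nothing is read from the share of members called. Between YAP3d and WT the percentage over all genes was 0, with 144 genes at an unadjusted p below 0.05, none of them a member, and 0 genes called by DESeq2.

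The make-up of the class differed between the groups. In WT the endothelial-like cells lay in clusters 6 (53.0%), 7 (27.8%) and 3 (19.3%), and in YAP3d mostly in the same 3, but in YAP7d 91 of 111 lay in cluster 23, which held 6 cells of YAP3d. Among the 598, 900 and 111 endothelial-like cells with at least 2000 UMIs, each thinned to that number, those with at least 2 UMIs of the proliferation list were 9.91% ± 4.65 in WT, 23.3% ± 8.17 in YAP3d and 58.3% ± 5.90 in YAP7d. Any 2 UMIs of the 18 genes on the list give this mark, so that the cells called cycling below are not all shown to be dividing. Cells under 2000 UMIs, found in WT and YAP3d alone, were judged on all their UMIs wherever cells without this mark are described below. All 16 endothelial markers were found in each group, with summed levels of 24602–27575 CPM in WT, 23037–25740 in YAP3d and 13580–14232 in YAP7d, and the sinusoidal list moved with them (18557–21180, 16515–19058 and 6792–7596 CPM). Stab2, which marks the sinusoid, averaged 1043, 1040 and 668 CPM. Levels in YAP7d are thus those of endothelial-like cells from another cluster than in WT, and the part of this in each difference was not tested unless a value is given below.

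Cd34 had 14.2 and 11.7 CPM in the WT libraries. The YAP3d libraries had 41.6, 27.7, 12.5 and 12.7 CPM, and the YAP7d libraries had 94.8, 58.6 and 125. Every YAP7d library was above every other one, while the range of YAP3d took in most of WT; among all genes tested, 43.8% did not overlap between YAP7d and WT and 25.9% between YAP7d and YAP3d. The means were 12.9 ± 1.78, 23.6 ± 13.9 and 92.8 ± 33.1 CPM. The log2 fold change was 3.01 between YAP7d and WT (SE 0.436, adjusted p = 2.25e-04 in edgeR) and 2.51 between YAP7d and YAP3d (SE 0.380, adjusted p = 3.13e-04), and 0.50 between YAP3d and WT (adjusted p = 0.9999). These levels rest on 39 counts in WT, 72 in YAP3d and 146 in YAP7d.

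The rise in Cd34 was also seen in the number of cells. After thinning each endothelial-like cell to 2000 UMIs, which 598, 900 and 111 cells reached, a Cd34 transcript was found in 2.0% ± 0.019 of the cells in WT, 3.36% ± 3.73 in YAP3d and 14.8% ± 3.46 in YAP7d, against 4.28%, 7.33% and 48.2% without thinning. T-cell-like cells, which should lack Cd34 and give the level of free RNA, had it in 0.148%, 0.0890% and 0.857% of thinned cells. Median depths before thinning were 2384–4668.5, 2317–4772 and 7403.5–13759.5 UMIs in endothelial-like cells and 4066–4368, 4445.5–4690 and 4281.5–5965 in T-cell-like cells. Markers of stellate-like cells, the class with the highest Cd34, summed to 114–155 CPM in endothelial-like cells of WT, 120–250 in YAP3d and 22.6–40.6 in YAP7d, where 6 of them, Col1a1 and Col3a1 among these, were at 0. The dendritic markers, of the class with the next level of Cd34, had 200–264, 292–322 and 271–320 CPM, with Xcr1 and Flt3 at 0 in YAP7d. The vessel list, of arterial and venous endothelium, had 960–1399 CPM in WT, 697–1446 in YAP3d and 284–697 in YAP7d, where Gja5 and Fbln5 were at 0.

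In all endothelial-like cells without the mark of proliferation, Cd34 had 15.02 and 8.93 CPM in WT, 37.0, 21.0, 6.98 and 13.2 in YAP3d, and 131, 38.1 and 81.7 in YAP7d. The YAP7d libraries, with 9, 9 and 31 such cells, again stood above all the others, and in the fit of all libraries with at least 5 such cells Cd34 differed by 2.93 from WT (edgeR adjusted p = 0.00113). With cells under 2000 UMIs left out as well the WT libraries had 10.8 and 9.34 CPM, and the difference was 3.12 (edgeR adjusted p = 9.22e-04). Their cycling cells had 81.2, 69.9 and 164 CPM. With a term for the libraries that hold Gm10709 transcripts, the YAP7d−WT difference was 1.59 (SE 0.585, edgeR adjusted p = 0.187) and no longer passed, while the YAP7d−YAP3d difference, which can be read within those libraries (3 against 2), was 1.55 (SE 0.414, adjusted p = 0.0233).

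Ackr1 had 35.5 and 85.1 CPM in WT, 104, 78.4, 60.9 and 70.7 in YAP3d, and 22.6, 0 and 11.1 in YAP7d. All YAP7d libraries were below all others, and the library without a count had a limit of 13.5 CPM, the level that 3 counts would give. The means were 60.3 ± 35.1, 78.5 ± 18.5 and 11.2 ± 11.3 CPM, from 227, 343 and 15 counts. The log2 fold change was -2.43 between YAP7d and WT (SE 0.510, edgeR adjusted p = 0.00363) and -2.67 between YAP7d and YAP3d (SE 0.485, adjusted p = 0.00147). In thinned cells Ackr1 was found in 9.02% ± 5.27 of the cells in WT, 12.9% ± 3.21 in YAP3d and 0 of 111 in YAP7d, which allows up to 2.7% of cells with a transcript at that depth for counting error alone, and in 0.148%, 0.0890% and 0% of T-cell-like cells. Without thinning, at the greater depth of the YAP7d cells, the shares were 14.6%, 18.8% and 6.77%.

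The call on Ackr1 was lost under 4 of 26 alternatives between YAP7d and WT and under 1 of 27 between YAP7d and YAP3d. Without WT replicate 2 the YAP7d−WT difference was -1.58 (edgeR adjusted p = 0.0873). Without cycling cells it was -1.70 (adjusted p = 0.115), and the YAP7d−YAP3d difference was -2.01 (adjusted p = 0.0556), in a fit that kept 1 YAP7d library, which is assumed to vary like the others. With all libraries of at least 5 such cells, chosen after seeing the data, they were -1.49 (adjusted p = 0.111) and -1.81 (adjusted p = 0.0413), and with cells under 2000 UMIs left out as well -1.53 (adjusted p = 0.0919) and -1.79 (adjusted p = 0.0391). Among cells without the mark of proliferation, Ackr1 had 35.0 and 79.9 CPM in WT, 111, 84.0, 55.8 and 69.6 in YAP3d, and 65.3, 0 and 16.3 in YAP7d, so that YAP7d replicate 1 lay within the range of the other groups. With the term for Gm10709 the differences were -2.85 (edgeR adjusted p = 0.0360) and -2.93 (adjusted p = 0.00598). The term is estimated within YAP3d, and the first value carries it over to WT and YAP7d, which share no level of these transcripts. With only the libraries that hold these transcripts the YAP7d−YAP3d difference was again -2.93 (SE 0.569, adjusted p = 0.00334).

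**Figure D2:**
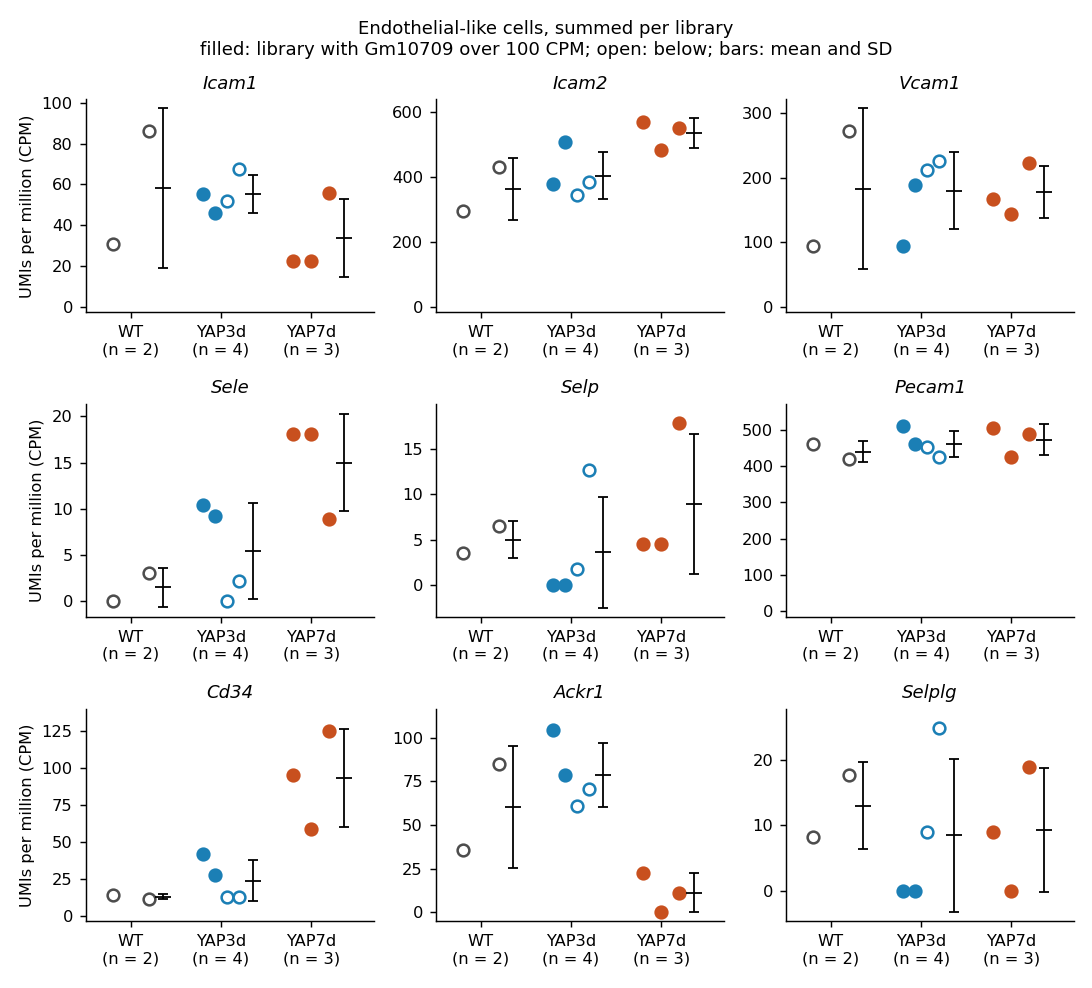
Level of each of the 9 genes in endothelial-like cells, 1 panel per gene, in CPM on linear axes; each point is 1 library, filled where Gm10709 transcripts exceeded 100 CPM, with the mean and SD of each group. The YAP7d libraries lay above all others for Cd34 (58.6 to 125 CPM) and below all others for Ackr1 (0 to 22.6 CPM), while the groups overlapped for Icam1, Vcam1, Pecam1, Selp and Selplg.

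Of 1609 thinned endothelial-like cells, 54 had a Cd34 transcript, 160 had an Ackr1 transcript and 5 had both. When the class was clustered by itself into 6 sub-clusters, with none of the 9 genes among the genes used, Ackr1 was highest in sub-cluster 3 (695 cells, 100.3 CPM from 358 counts pooled over libraries), where Efnb2 had 70.0 CPM. Its level there was 97.1 CPM in WT, 103 in YAP3d and 121 in YAP7d, but YAP7d had only 5 cells and 4 counts in it. Sub-cluster 5 held 93 of the 111 YAP7d cells and 11 of YAP3d, and Mki67, a proliferation marker, had 81.1 CPM in it. There Cd34 had 116 CPM in YAP7d (142 counts) and 95.6 in YAP3d (6 counts), and Ackr1 had 8.95 (11 counts) and 47.8 (3 counts). These values describe the sub-clusters and carry no test.

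Cd34 (chr1:194938821-194961292) and Ackr1 (chr1:173331886-173333503) are both on chromosome 1, as are Sele and Selp, and the stretch just before their start sites is shown because these 2 genes differed in opposite directions in the same class. Sequences are from RefSeq for GRCm38.p6, from 150 to 51 bases before the annotated start in the direction of the gene. Capitals mark the letters CAGGAAG or their reverse complement CTTCCTG, which hold the core that ETS-family factors bind. Both strands were searched and the letters overlap no other motif listed here.
Ackr1, chr1:173333554-173333653, minus strand: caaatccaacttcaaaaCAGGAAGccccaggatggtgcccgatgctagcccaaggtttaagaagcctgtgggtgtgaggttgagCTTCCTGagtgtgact
Cd34, chr1:194938671-194938770, plus strand: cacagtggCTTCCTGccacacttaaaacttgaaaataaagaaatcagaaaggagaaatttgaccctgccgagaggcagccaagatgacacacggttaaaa

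Both genes thus hold the letters, Ackr1 at 2 places, as did Sele at position -66 from the start used in the promoter table, which for Sele lies within the annotated gene (chr1:164039614-164058487) and not at its first base. In windows from 250 bases before to 50 after the start, 13.3% of 32851 promoters held them. Of the 9 genes 5 had a promoter in the table used (Ackr1, Cd34, Icam1, Sele and Selp). None of these 5 held GGAATG, letters of the TEAD type found in 14.7% of promoters. AGATAA, of the GATA type, was in Ackr1 and in 11.2% of promoters, and TATAAA was in Sele and Icam1 and in 13.6%. A match describes letters and no binding.

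The integrin ligands of the endothelium moved less. Icam2 had 294 and 430 CPM in WT, 378, 508, 344 and 385 in YAP3d, and 569, 483 and 551 in YAP7d, with means of 362 ± 96.1, 404 ± 71.7 and 534 ± 45.6 CPM. The YAP7d libraries were above both WT libraries and overlapped with YAP3d. The log2 fold change was 0.59 between YAP7d and WT (SE 0.200, edgeR adjusted p = 0.0506) and 0.48 between YAP7d and YAP3d (SE 0.170, adjusted p = 0.0631), so that neither passed. The first lay so close to the threshold that DESeq2 (adjusted p = 0.0431) and a fit of the sub-clusters with sinusoidal markers raised (edgeR adjusted p = 0.0489) called it. One of these, sub-cluster 2, held 109 cells of WT, 252 of YAP3d and none of YAP7d and had leukocyte genes such as Cd74, C1qa and Cd79a among its 10 leading genes, and without it the adjusted p was 0.0664. In all, 7 of 26 alternatives called the first difference, with adjusted p from 0.0295 to 0.605, and 5 of 27 called the second, with adjusted p from 0.0300 to 0.345.

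Icam1 had 30.7 and 86.0 CPM in WT, 55.5, 46.1, 51.9 and 67.7 in YAP3d, and 22.6, 22.5 and 55.7 in YAP7d. The WT libraries lay so far apart that the groups overlapped, and the log2 fold change of -0.55 between YAP7d and WT (edgeR adjusted p = 0.394) turned to 0.46 without WT replicate 2 and to 0.35 without cycling cells, where 1 YAP7d library remained. Vcam1 had 94.6 and 271 CPM in WT, 93.7, 189, 211 and 225 in YAP3d and 167, 144 and 222 in YAP7d, and its difference of 0.02 (adjusted p = 0.986) changed sign under 5 of the alternatives tried. For Vcam1 the group means were 183, 180 and 178 CPM, with the widest spread in WT.

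Pecam1, a junctional gene, varied little. It had 460 and 420 CPM in WT, 510, 462, 453 and 424 in YAP3d and 506, 424 and 488 in YAP7d, and the log2 fold change between YAP7d and WT was 0.14 (edgeR adjusted p = 0.589). Over the same libraries the summed endothelial markers of the class ranged from 13580 to 27575 CPM.

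The selectins were too low for a firm statement. Sele had 0 and 7 counts in WT, 3, 2, 0 and 8 in YAP3d and 4, 4 and 8 in YAP7d, which gave 0 and 3.02 CPM, 10.4, 9.23, 0 and 2.16 CPM, and 18.1, 18.0 and 8.92 CPM. YAP7d was above WT in every library and overlapped with YAP3d, and the difference of 2.65 on the log2 scale (SE 1.01, adjusted p = 0.0796 in edgeR) did not pass. Over 13 alternatives it ranged from 0.28 to 3.45, and 2 of them called it, the fit without a filter on low counts (edgeR adjusted p = 0.0285) and that of the 2 groups alone (adjusted p = 0.0461). Selp had 3 and 15 counts in WT, 0, 0, 1 and 47 in YAP3d and 1, 1 and 16 in YAP7d, and was left out by the filter. Of its 84 endothelial-like counts 68 came from sub-cluster 1 (432 cells, 26.9 CPM), the one in which Rspo3, known from central veins, had 258 CPM, and 1 from sub-cluster 3, where Ackr1 was highest. Ackr1, which like Selp is known from venules, had 43.1 CPM in sub-cluster 1 against 100.3 in sub-cluster 3. Selplg, a leukocyte gene, had 8.28 and 17.7 CPM in endothelial-like cells of WT, 0 to 24.8 in YAP3d and 0 to 19.0 in YAP7d, with a difference of -0.06 between YAP7d and WT (edgeR adjusted p = 0.976).

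**Figure D3:**
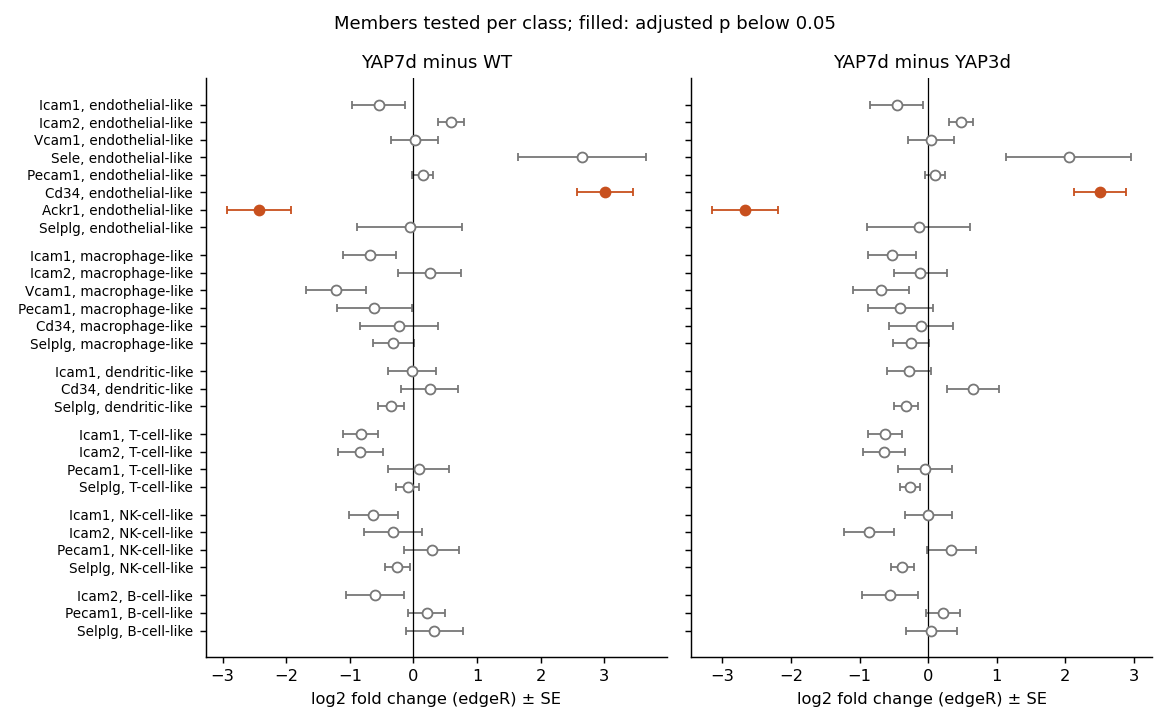
Log2 fold change ± SE (edgeR) of the members in each class tested, for YAP7d minus WT and YAP7d minus YAP3d; filled points have a Benjamini-Hochberg adjusted p below 0.05. In the endothelial-like class Cd34 lay at 3.01 and 2.51 and Ackr1 at -2.43 and -2.67, and no other point within a class is filled.

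The wider machinery of adhesion in endothelial-like cells was read from lists. Between YAP7d and WT, 2 of 13 tested genes of endothelial adhesion and junctions were called higher and 2 lower, where 9.71% of all genes were called higher and 8.72% lower. The higher ones were Mcam and, below the level set for naming genes, Pvr (1.2, adjusted p = 0.0210), a ligand of nectin and of Cd226. Mcam, the junctional CD146, rose from 82.6 to 171 CPM (log2 fold change 1.1, edgeR adjusted p = 0.00969), Stab1, a scavenger receptor of sinusoids, fell from 737 to 425 (-0.78, adjusted p = 0.00329), and Cd47 fell from 1015 to 604 (-0.72, adjusted p = 0.00457). Of 5 tested genes for making selectin ligands 1 was called, as lower: Chst2, a sulfotransferase, fell from 131 to 40.4 CPM (-1.48, adjusted p = 0.00288). None of the 2 tested leukocyte integrins or of the 5 genes of integrin activation passed. Between YAP7d and YAP3d Stab1 (-0.84), Cd47 (-0.76) and Chst2 (-1.28) were again lower, Rasgrp2 of integrin activation was lower (-0.69, edgeR adjusted p = 0.0152) and Jam3 of the junctions was higher (1.96, adjusted p = 0.0319). Between YAP3d and WT no gene of any list passed.

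The NF-kB response, to which Icam1, Vcam1 and Sele are known to belong, had 2 of 13 tested genes lower and none higher, where 8.72% of all genes were lower. Irf1 fell from 188 to 83.9 CPM (-1.13, edgeR adjusted p = 0.00106) and Nfkbiz from 120 to 41.2 (-1.46, adjusted p = 0.00622). Immediate early and heat shock genes, which digestion of tissue is known to raise, were called lower in 10 of 12 (8.72% of all genes), with a median of -1.58 against -0.04 over all genes; Hspa1b was lower by -4.70, Hspa1a by -3.61 and Egr1 by -2.20 on the log2 scale. The proliferation list was called higher in 17 of 17 (9.71% of all genes) with a median of 3.96, led by Tk1 (5.82), Pbk (4.98) and Mki67 (4.27). The median over the 8 tested members was 0.08. The part of either list in the values of the members was not tested beyond the fit without cycling cells.

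The second comparison concerned macrophage-like cells, the only other class with much Vcam1. No member passed the test in any of the 3 contrasts, of 6 tested; over all 7197 genes 1.07% were called between YAP7d and WT, 0.32% between YAP7d and YAP3d and 0 between YAP3d and WT. When 1 library was left out the 77 genes of the first share became 13 to 343 and the 23 of the second 0 to 312, the highest in both without YAP3d replicate 2, the lowest without WT replicate 2 in the first (17 without WT replicate 1) and without YAP3d replicate 4 or YAP7d replicate 3 in the second. At an unadjusted p below 0.05, 1 member stood out between YAP7d and WT and 0 in the other contrasts, and DESeq2 called none. The class held 109 cells in WT, 217 in YAP3d and 915 in YAP7d, and its clusters differed, with cluster 14 holding 51.4% of WT, 32.7% of YAP3d and 1 cell of YAP7d. Cells with the mark of proliferation made up 19.3%, 33.0% and 63.1% of those with at least 2000 UMIs (91, 185 and 915 cells).

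Vcam1 was the member with the low unadjusted p. It had 209 and 407 CPM in WT, 305, 76.1, 199 and 352 in YAP3d, and 113, 141 and 163 in YAP7d. The YAP7d libraries were below both WT libraries, as 43.3% of all genes in this class did not overlap, and within the range of YAP3d. Endothelial markers in the class, all 16 of them found, summed to 842–1151 CPM in WT, 330–1345 in YAP3d and 251–271 in YAP7d, and their part in the level of Vcam1, which endothelial-like cells also hold, was not tested. The log2 fold change between YAP7d and WT was -1.22 (SE 0.469, unadjusted p = 0.0192, edgeR adjusted p = 0.194), and between YAP7d and YAP3d it was -0.69 (adjusted p = 0.545). In sub-clusters with Kupffer markers Vcam1 had 362 and 515 CPM in WT, 458 (from 8 cells), 121, 241 and 467 in YAP3d and 172, 194 and 406 in YAP7d, where the groups overlapped. Of these sub-clusters, 0 (145 cells) had 481 CPM and 3 (408 cells) had 288. Sub-cluster 3 was led by Marco, Timd4, Vsig4 and Clec4f, known from Kupffer cells, and all 6 Kupffer markers were raised in it. In sub-cluster 0, 4 of the 6 were raised, but none of them was among its 10 leading genes, which included Clec4g, Igfbp7 and Dnase1l3, known from sinusoidal endothelium, so that it is given no cell type. Sub-cluster 0 held 64.2% of the macrophage-like cells of WT, and sub-cluster 3 held 38.9% of those of YAP7d.

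**Figure D4:**
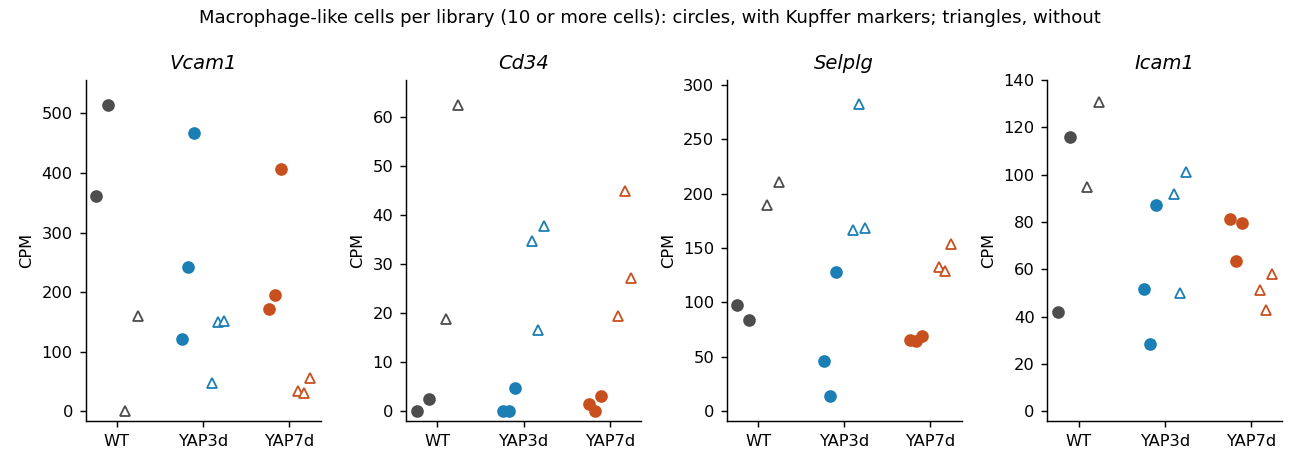
Levels of Vcam1, Cd34, Selplg and Icam1 in CPM per library in macrophage-like cells; circles are sub-clusters 0 and 3, with Kupffer markers raised, and triangles the others, where a library had at least 10 cells. Vcam1 lay higher in the former (mean 310 against 78.8 CPM over libraries).

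The other members of the macrophage-like class did not pass the test. Pecam1 had 32.1 and 30.9 CPM in WT, 0, 13.4, 68.9 and 35.3 in YAP3d and 18.5, 24.6 and 19.6 in YAP7d, so that YAP7d lay below both WT libraries and within the range of YAP3d (-0.61, edgeR adjusted p = 0.654 between YAP7d and WT), with 4 and 18 counts behind the WT values. Icam1 had 64.2 and 120 CPM in WT, 38.3 to 212 in YAP3d and 56.8 to 68.3 in YAP7d (-0.69, edgeR adjusted p = 0.439 between YAP7d and WT). Selplg had 136 and 122 CPM in WT, 79.5 to 143 in YAP3d and 86.0 to 128 in YAP7d (-0.32, adjusted p = 0.675). Cd34 was low in the class but gathered in sub-cluster 4 (157 cells, with Tmem119 at 87.2 CPM), which had 227 of the 322 macrophage-like counts. Its level in that sub-cluster was 188 CPM in WT (8 counts), 151 in YAP3d (26 counts) and 68.1 in YAP7d (193 counts), against 1.73 to 12.8 CPM in the other sub-clusters. Cd34 was 1 of the 10 leading genes of sub-cluster 4, so this is a description. Over all genes of the class 1.07% were called between YAP7d and WT. Leukocyte integrins and related receptors had 0 of 10 tested genes called in the class and the NF-kB response 1 of 16, Relb, which fell from 61.3 to 19.99 CPM (-1.59, edgeR adjusted p = 0.0486). Integrin activation had 0 of 7 called, selectin ligand synthesis 0 of 5, endothelial adhesion and junctions 0 of 8, and immediate early and heat shock genes 0 of 12. The proliferation list had 9 of 18 higher between YAP7d and WT, where 1.07% of all genes were called in either direction. Among the 9 were Birc5 (3.93, edgeR adjusted p = 0.0249), Cdca3 (3.86, adjusted p = 0.0140) and Tk1 (3.04, adjusted p = 0.0163).

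In T-cell-like and NK-cell-like cells the question was whether the ligands that meet the endothelium differed. Of 4 members tested in T-cell-like cells 0 passed in any contrast, where the share over all 6524 genes was 0 between YAP7d and WT (560 genes at an unadjusted p below 0.05), 0.92% between YAP7d and YAP3d (60 genes, and 4 to 106 when 1 library was left out) and 0 between YAP3d and WT. DESeq2 called none of the 4. At an unadjusted p below 0.05 there were 2 members between YAP7d and WT, Icam1 and Icam2, and 1 between YAP7d and YAP3d. Icam1 had 66.0 and 63.5 CPM in WT, 78.9, 55.5, 60.4 and 43.9 in YAP3d and 28.2, 30.6 and 39.97 in YAP7d, where every library lay below all others, as 23.3% and 11.1% of all genes did not overlap in these contrasts. The difference from WT was -0.83 (SE 0.277, unadjusted p = 0.00988, edgeR adjusted p = 0.355) and that from YAP3d -0.63 (adjusted p = 0.261). Icam2 had 66.0 and 63.5 CPM in WT, 39.5, 48.6, 60.4 and 68.0 in YAP3d and 43.1, 54.4 and 21.2 in YAP7d (-0.84, SE 0.350, adjusted p = 0.512). Endothelial markers, all 16 of them found, summed to 221–612 CPM in T-cell-like cells of WT, 53.8–823 in YAP3d and 21.6–65.8 in YAP7d, and their part in the level of Icam2, which stood highest in endothelial-like cells, was not tested. Selplg had 457 and 513 CPM in WT, 499 to 644 in YAP3d and 409 to 480 in YAP7d (-0.09, adjusted p = 0.945). The T-cell-like cells of YAP7d came more from cluster 10 (33.3%, against 11.8% in WT and 10.5% in YAP3d). Of 9 tested leukocyte integrins and related receptors none passed, and of 17 proliferation genes 6 were higher between YAP7d and YAP3d, among them Stmn1 (2.67, edgeR adjusted p = 0.0230), Rrm2 (2.53, adjusted p = 0.00267) and Cdca3 (2.4, adjusted p = 0.0329).

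In NK-cell-like cells 0 of 4 members tested passed, by edgeR or DESeq2, although 7.5% of 4159 genes were called between YAP7d and WT and 14.1% between YAP7d and YAP3d. The first share rests on 312 genes, which became 70 without WT replicate 1, 61 without WT replicate 2 and 160 without YAP7d replicate 2. The second rests on 588, which became 371 without YAP3d replicate 4. At an unadjusted p below 0.05 there were 0 members between YAP7d and WT and 2 between YAP7d and YAP3d. Selplg had 692 and 821 CPM in WT, 807, 869, 797 and 906 in YAP3d and 606, 618 and 594 in YAP7d. The YAP7d libraries were below all others, and 41.5% and 25.2% of all genes did not overlap in these contrasts. The log2 fold changes of -0.25 from WT (edgeR adjusted p = 0.492) and -0.37 from YAP3d (SE 0.165, adjusted p = 0.141) did not pass. Cluster 5 held 77.7% of NK-cell-like cells in YAP7d, 38.9% in WT and 80 of 200 cells in YAP3d. Cells with the mark of proliferation were 59.9%, 30.1% and 33.2% of those with at least 2000 UMIs in YAP7d, WT and YAP3d. Mki67 itself was found in fewer of these cells after thinning, in 10.6, 12.9 and 12.1% in the YAP7d libraries, 0 and 3.66% in WT and 0 to 2.5% in YAP3d. Of 11 tested leukocyte integrins and related receptors 2 were lower between YAP7d and WT, Itgb7 (-1.04, edgeR adjusted p = 0.0186) and Cd226 (-1.12, adjusted p = 0.0479). Both were also lower between YAP7d and YAP3d (-0.87 and -1.11).

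In dendritic-like cells Selplg had 378 and 446 CPM in WT, 371 to 458 in YAP3d and 342, 330 and 345 in YAP7d, which was below both, as 26.9% and 8.51% of all genes in the class did not overlap in these contrasts, with -0.35 from WT (edgeR adjusted p = 0.784) and -0.32 from YAP3d (adjusted p = 0.648). No member was called there (3 tested; 0% of 3700 genes from WT and 0.027% from YAP3d) or in B-cell-like cells (3 tested; 0.0448% of 2231 genes from WT and 0 from YAP3d), at an unadjusted p below 0.05 or by DESeq2. Cd34 in dendritic-like cells had 74.3 and 71.9 CPM in WT, 39.3 to 86.6 in YAP3d and 43.6, 130 and 104 in YAP7d (0.25, adjusted p = 0.962).

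Monocyte-like and neutrophil-like cells were not tested, since a test was to have 2 libraries of at least 10 cells in each group and they had 1, 2 and 3 and 1, 2 and 1. Selplg in monocyte-like cells had 451 CPM in WT, 247 and 410 in YAP3d and 376, 282 and 236 in YAP7d. In neutrophil-like cells, which roll on selectins through PSGL-1, it had 821 CPM in WT, 1241 and 647 in YAP3d and 371 in YAP7d. These are the libraries with at least 10 cells. Among those with fewer, WT replicate 1 had 213 CPM in 7 monocyte-like cells and 1312 in 5 neutrophil-like cells. YAP3d replicate 1 had 552 in 3 and 466 in 6, and YAP3d replicate 3 had 311 in 7 and 1338 in 6. In neutrophil-like cells YAP7d replicate 1 had 242 in 5 cells and YAP7d replicate 2 had 0 in 1 cell. In the neutrophil-like cells of YAP7d replicate 3, the library with 371 CPM, C1qb of macrophages had 674 CPM, against 78.1 in WT replicate 2, and the median depths were 6313 and 1938 UMIs. Their part in the level of Selplg was not tested, and no order of the groups is read from these values.

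Over all cells of a library the endothelial genes fell with the share of endothelial-like cells. Icam2 had 156 and 198 CPM in WT, 77.3 to 159 in YAP3d and 61.8, 71.9 and 48.9 in YAP7d, and Pecam1 had 225 and 164, 57.2 to 172, and 46.4, 54.1 and 37.8. Ackr1 had 16.2 and 28.8 CPM in WT, 5.62 to 23.3 in YAP3d, and 1.05, 0 and 0.439 in YAP7d. The log2 fold changes between YAP7d and WT were -1.39 for Icam2 (edgeR adjusted p = 0.0127), -1.92 for Pecam1 (adjusted p = 0.0101) and -5.25 for Ackr1 (adjusted p = 0.00431). These 3 of 8 members tested were called, all lower, against 18.1% of 12071 genes (10.9% lower), and the same 3 were called between YAP7d and YAP3d (16.5% of genes, 9.83% lower), with 54.2% and 27.3% of all genes not overlapping. The 2184 genes behind the first share became 509 without WT replicate 1 and 668 without WT replicate 2, with 2 members called in each, and 1268 to 3179 without any other library. The 1988 behind the second became 860 to 3569. Between YAP3d and WT 0 members were called (358 genes at an unadjusted p below 0.05, 16 genes by DESeq2). In such a sum fewer cells of a type and less RNA per cell cannot be told apart. Within endothelial-like cells Icam2 and Pecam1 were not lower in YAP7d (0.59 and 0.14 on the log2 scale), and Ackr1 was. With the term for Gm10709 0 members were called over all cells between YAP7d and WT.

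**Figure D5:**
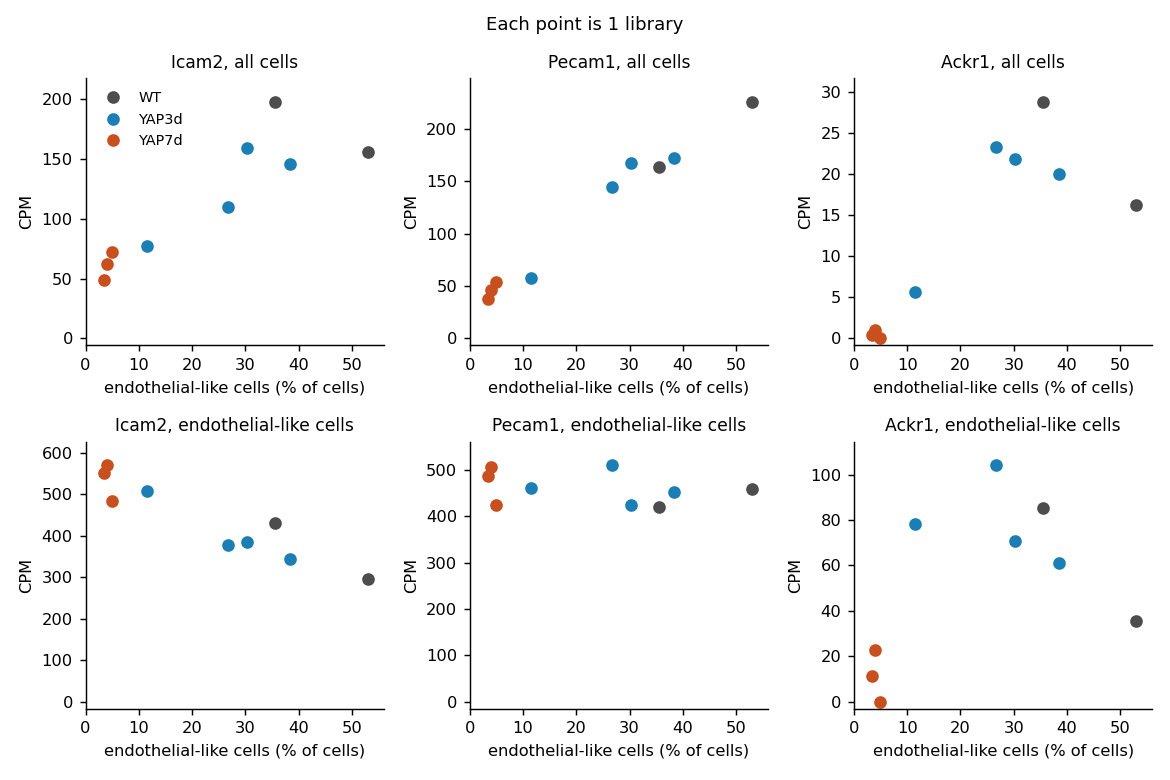
Levels of Icam2, Pecam1 and Ackr1 in CPM over all cells and in endothelial-like cells, plotted against the percentage of endothelial-like cells of the library; each point is 1 library of WT, YAP3d or YAP7d. Over all cells the YAP7d libraries, with 4.16% endothelial-like cells on average, lay lowest for all 3 genes, while within endothelial-like cells Icam2 and Pecam1 were not lower there.

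The cells that held the counts of a gene differed between the groups. Vcam1 counts were 70.8% endothelial-like and 26.3% macrophage-like in WT, 71.3% and 24.2% in YAP3d, and 9.63% and 87.1% in YAP7d. Icam1 counts were 35.0% endothelial-like and 12.1% macrophage-like in WT against 3.14% and 53.6% in YAP7d. For Pecam1 the endothelial-like part was 83.4%, 73.0% and 44.8%. Selplg counts were 41.5% T-cell-like and 3.48% macrophage-like in WT, and 13.8% and 23.2% in YAP7d. These percentages depend both on the number of cells of each class and on the UMIs per cell, and carry no test.

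Free RNA was looked at in T-cell-like cells. Cd34 had at most 3.4 CPM in them, Ackr1 at most 1.8 and Vcam1 at most 7.9, and Ackr1 in endothelial-like cells of YAP7d, with 22.6, 0 and 11.1 CPM, was the only one of the 3 with a library at or under that level. C1qb, of macrophages, had 11 to 41 CPM in T-cell-like cells of WT and 73 to 176 in YAP7d, and Stab2 had 0 to 33.8 over all libraries. Macrophage markers in endothelial-like cells summed to 229–452 CPM in WT, 139–909 in YAP3d and 388–850 in YAP7d.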

How the data were processed

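The authors aligned reads to mm10 and counted them with Cell Ranger, and the deposited table used here holds raw counts of UMIs per gene and cell as whole numbers. The submitters' processing notes also name Seurat 2, the labels mention both v2 and v3 chemistry, and the study's methods give 3' v2 for the libraries used here. Each cell's library was read from its name, and columns of no sample numbered 0. The 9 members and all lists were chosen with earlier results of these data known.

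Cells with under 200 genes were left out (35 of 8562). Cells were scaled to 10000 counts, and 2410 of 2500 variable genes were used, without the 9 members, the wider lists and 26 genes correlated with the cell cycle over 0.4. They were clustered with 30 principal components, 15 neighbours and Leiden resolution 1 (scanpy 1.11.5, anndata 0.12.19, igraph 0.11.9, Python 3.11.15), which gave 25 clusters, and again within classes at resolution 0.5. A cluster was named from at least 3 raised markers (log2 fold over 1) of 151 in the table and its 10 leading genes. Scrublet called 61 doublets (0.715%), which were kept. Of 8527 cells, 640 had under 2000 UMIs and were left out of thinned shares, but not of fits without cycling cells unless stated.

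For the fits, the counts of a class were added up in each library. Libraries with under 10 cells of it were left out, and a class was tested where each group kept 2 libraries (some alternatives keep 1). edgeR 4.0.16 (R 4.3.3) was used with filterByExpr, TMM and the quasi-likelihood test on all 3 groups, and p-values were adjusted by Benjamini-Hochberg over all genes of the class. DESeq2 1.42.0 was an alternative, and both were tested on simulated data, where edgeR's share of false calls was over the threshold set in most comparisons, endothelial-like cells among them. The share of DESeq2 was over it in endothelial-like cells, in T-cell-like cells and over all cells. CPM are counts per 1000000 counts of the class. The limit of a count of 0 is that of 3 counts, for counting error alone. Promoters came from RefSeq on GRCm38.p6.

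The members are named whatever their change. From each wider list at most the 3 largest rises and 3 largest falls are named, with an adjusted p below 0.05, at least 50 CPM in 1 group and values that do not overlap, in YAP7d minus WT of endothelial-like and macrophage-like cells and YAP7d minus YAP3d of T-cell-like cells. Pvr, Jam3, Rasgrp2, Itgb7 and Cd226 were named after their values were seen. Likeness is given for members and genes with at least 50 CPM in 1 class. Sub-clusters and leading genes are named with their values seen.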

Additional observations from a re-analysis of the deposited data

Results flagged for a closer look

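In endothelial-like cells Selp had 12.7 CPM in YAP3d replicate 4 and 0 to 1.79 in the other 3 YAP3d libraries, a gap that passed Dixon's criterion for 4 values in 1 of 35 groups examined, where chance passes about 1 in 20. The criterion takes values of 0 as exact, whereas the 2 libraries without a count had limits of 10.4 and 13.8 CPM, near or above the 12.7 CPM set apart. That library held 47 of the 48 Selp counts of the group and 771 of its 1059 endothelial-like cells.

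Icam2 was higher in all YAP7d than in all WT libraries in endothelial-like cells (0.59 on the log2 scale) and lower in all of them in T-cell-like cells (-0.84). Neither difference passed the adjusted threshold, and the difference between the classes was not tested. Endothelial markers in T-cell-like cells summed to 221–612 CPM in WT and 21.6–65.8 in YAP7d, and their part in the latter difference was not tested.

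Selp had 126 of its 259 counts (48.6%) in the 22 cells that were given no class and entered no comparison. Of these counts 70 came from WT, 43 from YAP3d and 13 from YAP7d.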

How the results depend on the processing

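Of 478 counts of called members under alternatives, 443 were equal to those reported, 20 were lower and 15 higher. Members were called only in the YAP7d contrasts of endothelial-like cells and of all cells. Most of the equal counts are therefore 0 in both fits and say little about stability. In endothelial-like cells 1 member instead of 2 was called without cycling cells in both YAP7d contrasts (1 YAP7d library left), 1 between YAP7d and WT without them in libraries of at least 5 cells, with or without cells under 2000 UMIs, and 1 there with the Gm10709 term; all but the first were chosen after seeing the data. In macrophage-like cells leaving out each library gave 0 to 1 members between YAP7d and WT, the 1 being Vcam1 without YAP3d replicate 2 (edgeR adjusted p = 0.0356). In NK-cell-like cells 1 member (YAP7d minus YAP3d) was called with library totals only. Over all cells the Gm10709 term left 0 members (YAP7d minus WT), and between YAP7d and YAP3d leaving out a library gave 1 to 3, the Gm10709 term 1 and only libraries with Gm10709 transcripts 0; the cause was not tested.

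Over the alternatives the log2 fold change of Cd34 in endothelial-like cells ranged from 1.59 to 3.28 (YAP7d minus WT) and 1.55 to 2.87 (YAP7d minus YAP3d), and that of Ackr1, thinned cells left out, from -2.85 to -1.49 and from -2.98 to -1.79. In thinned cells YAP7d had 0 Ackr1 counts, and the fitted fold is set by the prior count and is no bound. Signs turned as follows in endothelial-like cells. Icam1 came to 0.35 without cycling cells in both contrasts, and to between -1.42 and 0.46 (YAP7d minus WT) when a library was left out. Vcam1 (YAP7d minus WT) came to -0.031 without a filter on low counts, to -0.033 with library totals only, to -0.49 without WT replicate 1, to -0.24 without YAP7d replicate 3 and to at most 1.02 when a library was left out. Vcam1 (YAP7d minus YAP3d) came to -0.019 with library totals only, -0.11 without YAP3d replicate 1 and -0.22 without YAP7d replicate 3, with 0.24 at most when a library was left out. Pecam1 came to -0.0075 in thinned cells. Vcam1 of macrophage-like cells (YAP7d minus YAP3d) came to 0.039 in libraries with Gm10709 transcripts. Without thinning, Cd34 was found in 4.28, 7.33 and 48.2% and Ackr1 in 14.6, 18.8 and 6.77% of endothelial-like cells of WT, YAP3d and YAP7d.

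The replicate numbers do not pair the libraries, since in no class were all 7 correlations of same-numbered libraries over 0.1. They ran from -0.165 to 0.128 in endothelial-like cells (2 over 0.1) and from -0.286 to 0.204 over all cells (4 over 0.1), with up to 0.31 in B-cell-like cells, and 0 to 4 of 9 libraries per class correlated best with their own number. Libraries of unlike number did deviate together. WT replicate 2, YAP3d replicate 4 and YAP7d replicate 3 correlated at 0.254, 0.324 and 0.342 in endothelial-like cells. Over all cells these correlations were 0.265, 0.339 and 0.450. They held the most cells of their groups (1417, 2554 and 1834). What these libraries share was not tested, and no fit holds a term for it. With the replicate block Vcam1 (YAP7d minus WT) came to -0.12, 1 member was called over all cells between YAP7d and YAP3d, and Cd34 (2.82) and Ackr1 (-2.10) kept their calls in endothelial-like cells.

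Genes called in endothelial-like cells between YAP7d and WT numbered 1376, but 483 in thinned cells, 613 without cycling cells, 233 with the Gm10709 term and 660 to 1390 without 1 library. Between YAP7d and YAP3d they numbered 1278, but 399, 592, 460 and 699 to 1283, and 513 in libraries with Gm10709 transcripts. In macrophage-like cells (YAP7d minus WT) they numbered 77, and 0 to 482 under the alternatives. YAP7d had 111 endothelial-like cells, and Ackr1 there rests on 15 counts, which limits both estimates.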
